A study of Mus musculus with 12 samples.

Results

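The genes examined here encode RNA-binding proteins, many but not all of them known for choosing splice sites, and were grouped by symbol. They are the RNA binding motif (RBM) genes and the tissue-type regulators of the Celf, Elavl, Pcbp, Ptbp and Rbfox families. The others are the nuclear co-regulators Akap8, Akap8l, Matr3, Puf60, Sfpq, Tardbp, Tra2a and Tra2b. A splicing cluster is a group of introns that share splice sites. Clusters were taken by the gene symbol that the deposited table gives them, with Rbm7, Rbm15 and Rbm15b left out. This gave 89 of the 7263 tested clusters, 281 of 20437 introns, and 38 of 4273 named genes. The symbols Qki, Mbnl, Khdrbs, Esrp and Raver were also searched, and no tested cluster carried them. A further 7 clusters of such genes were listed without a test for lack of covered samples: 3 of Mbnl1 and 1 each of Esrp1, Pcbp3, Rbm47 and Tardbp.

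Nascent RNA was labelled with 4-thiouridine (4sU) for 30 min in mouse embryonic stem cells, after 3 h with dTAG-13 (dTAG, 6 samples) or without it (Ctrl, 6 samples). The cells of both conditions carried METTL3, the catalytic subunit of the N6-methyladenosine (m6A) writer, fused at its C-terminus to FKBP12(F36V), the degron that dTAG-13 binds. They came from 2 clones, C3 and H5, of a hybrid Cast/129S XX line with doxycycline-inducible Xist, with 3 replicates per clone and condition, and clones and replicates were pooled in a single test. The tables held 1 fitted PSI (percent spliced in, here a fraction) per intron and condition, so no value below has a replicate error, the read depth behind it is unknown, and no exact test over samples could be made. Each p is that of the authors' LeafCutter likelihood-ratio test on split read counts, taken from a chi-square tail, and measures only the spread between these 12 samples. It tests a cluster as a whole and not a single intron.

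Many splicing regulators bind pre-mRNAs at short motifs beside an exon and favour or block the use of a nearby splice site. Celf, Rbfox, Mbnl and Elavl proteins are known for tissue-restricted exons, and Ptbp1 for holding neuronal exons out of mRNA in other cells. Many of these genes also splice their own transcripts into forms that nonsense-mediated decay removes, through a "poison" exon with an early stop codon or through the loss of a coding exon.

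At p of at most 0.05 in LeafCutter's likelihood-ratio test, 6 of the 89 clusters were called (6.74%), against 6.84% of all tested clusters. They belonged to Akap8l, Rbm4, Rbmxl1, Rbm6, Sfpq and Tardbp. After Benjamini-Hochberg adjustment over the 7263 tested clusters, 0 of the 89 were under 0.2, where the background was 1.58%, and 0 were under 0.05, where it was 0.702%. The smallest adjusted p was 0.235, for Akap8l. Counted by gene, 6 of 38 had a cluster at p of at most 0.05 (15.8%), against 11.2% of all named genes. A gene with more clusters has more occasions for a small p. With each gene's smallest p multiplied by its number of clusters, 4 of 38 remained. The share over all genes was not counted in that way.

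The sizes were small as well. DeltaPSI is the PSI in dTAG minus the PSI in Ctrl, and each cluster was described by its largest absolute value. Its median was 0.0197 over the 89 clusters, with quartiles of 0.00917 and 0.0369, and 0.0214 over all tested clusters, with quartiles of 0.00909 and 0.0424. It reached 0.1 in 2 of the 89 clusters (2.25%), those of Rbm3 and Akap8l, against 4.63% of all, and 0.05 in 10 (11.2%), against 19.8% of all. In 45 clusters (50.6%) no intron moved by 0.02, as in 47.7% of all clusters.

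**Figure D1:**
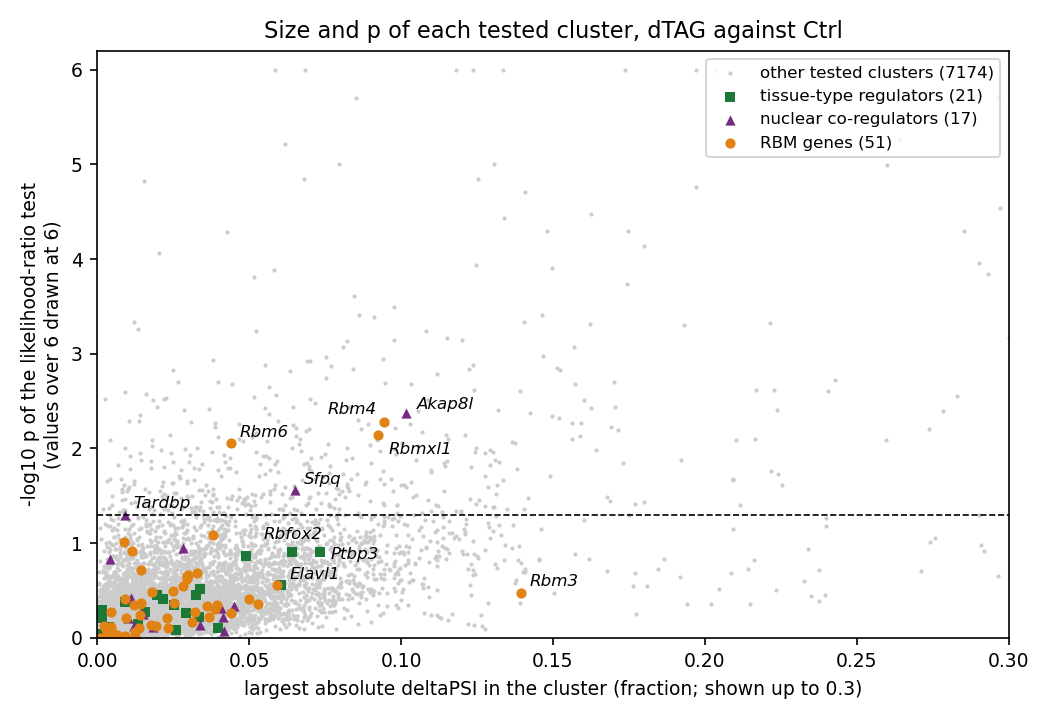
Each point is a tested cluster, with its largest absolute deltaPSI (fraction) on the x axis and −log10 of the p of LeafCutter's likelihood-ratio test on the y axis, and coloured symbols mark the 3 groups of regulators while grey points are all other tested clusters. The dashed line is the threshold of 0.05. The 6 symbols on or above it are Akap8l, Rbm4, Rbmxl1, Rbm6, Sfpq and Tardbp, and Rbm3 lies farthest right at 0.139 with chi-square p = 0.332.

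Among the tissue-type regulators, 0 of 21 clusters in 8 genes had p of at most 0.05 in LeafCutter's likelihood-ratio test, against 6.84% of all tested clusters, and the smallest unadjusted p was 0.123. The median of the largest absolute deltaPSI was 0.0254. The nuclear co-regulators had 3 of 17 clusters in 8 genes at p of at most 0.05 (17.6%) and a median of 0.0185. The RBM genes had 3 of 51 clusters in 22 genes (5.88%) and a median of 0.0181. Differences among these 3 groups were not tested.

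The largest value of the tissue-type group was at Ptbp3, the paralogue of Ptbp1 that is best known from blood cells. Its 34-nt exon, annotated as coding, was included at 0.137 in dTAG, against 0.0919 in Ctrl. The junction that skips it, an intron of 24671 nt, had a PSI of 0.758 in dTAG and 0.832 in Ctrl, and the cluster had chi-square p = 0.125. Both junctions of the exon were higher in dTAG, at 0.121 and 0.121, against 0.0809 and 0.0875 in Ctrl. Ptbp1 has a 31-nt exon at the same place near its start, and this exon stood at the other end of the scale, with an inclusion of 0.983 in dTAG and 0.986 in Ctrl (chi-square p = 0.618). Both exons are printed because they are related and yet used so unequally. Sequences throughout are those of the reference genome, GRCm38 (mm10), and not of the hybrid's own alleles, 5′ to 3′ on the gene's strand. Exons are in capitals, with 20 intron bases on each side.
Ptbp3 34-nt exon, chr4:59546129-59546202, minus strand: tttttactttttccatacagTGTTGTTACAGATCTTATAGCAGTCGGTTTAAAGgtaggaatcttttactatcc
Ptbp1 31-nt exon, chr10:79856484-79856554, plus strand: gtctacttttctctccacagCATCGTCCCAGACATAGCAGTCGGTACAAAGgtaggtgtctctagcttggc
Counted from the 3′ end, 17 of 31 bases were identical (54.8%), and 13 of the last 15 (86.7%).

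Ptbp1 itself had 4 tested clusters and no deltaPSI over 0.0197. Its 78-nt exon, whose skipping gives a shorter coding form, was included at 0.460 in dTAG and 0.481 in Ctrl (chi-square p = 0.351). Its 34-nt exon, whose skipping is annotated as nonsense-mediated decay and is the known route by which the protein limits its own mRNA, was included at 0.951 in dTAG and 0.968 in Ctrl (chi-square p = 0.421). The decay form, read from the skipping junction of 1479 nt, thus had a PSI of 0.0253 in dTAG and 0.0162 in Ctrl. The 78-nt and 34-nt exons read as follows.
Ptbp1 78-nt exon, chr10:79860097-79860214, plus strand: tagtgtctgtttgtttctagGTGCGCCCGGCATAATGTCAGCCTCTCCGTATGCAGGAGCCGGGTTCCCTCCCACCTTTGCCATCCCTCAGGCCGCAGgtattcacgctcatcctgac
Ptbp1 34-nt exon, chr10:79861994-79862067, plus strand: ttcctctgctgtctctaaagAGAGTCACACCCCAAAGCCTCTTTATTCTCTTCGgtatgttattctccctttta
Ptbp2, the neuronal paralogue, was measured at a pair of 3′ splice sites 3 nt apart, where the first site had a PSI of 0.498 in dTAG and 0.469 in Ctrl (chi-square p = 0.552).

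Rbfox2, which binds GCAUG, had a cluster of 2 introns near its start. In GENCODE the shorter is the first intron of several coding transcripts and the longer follows the second exon of others. The intron of 20588 nt had a PSI of 0.135 in dTAG and 0.0704 in Ctrl, and the intron of 98445 nt had 0.865 in dTAG and 0.930 in Ctrl. Both run to the same 3′ splice site, and the cluster had chi-square p = 0.123, so the shift of 0.0642 was not called. Their 5′ splice sites each matched the consensus CAGGTAAGT at 8 of 9 bases, and these 9 bases are in capitals.
Rbfox2 5′ site of the shorter intron, chr15:77153510-77153549, minus strand: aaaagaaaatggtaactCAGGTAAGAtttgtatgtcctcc
Rbfox2 5′ site of the longer intron, chr15:77231367-77231406, minus strand: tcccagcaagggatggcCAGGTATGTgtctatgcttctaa

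Elavl1 (HuR), a broadly expressed stabiliser of AU-rich mRNAs, had a 58-nt exon inside its first intron. GENCODE has the intron after it, from an alternative first exon, but not the intron before it. Inclusion was 0.196 in dTAG and 0.231 in Ctrl, and the 770-nt intron after it had a PSI of 0.257 in dTAG and 0.317 in Ctrl (chi-square p = 0.275). The intron before it had 0.0708 in dTAG and 0.0578 in Ctrl, so the junctions on its sides moved in opposite directions. The lower inclusion thus came from the 770-nt intron, which is also the annotated first intron of another transcript. Elavl2, the neuronal relative of Elavl1, had no deltaPSI over 0.0259 (chi-square p = 0.817). Celf1, which acts on GU-rich RNA, had 6 clusters. The largest value was 0.0490, at a pair of 3′ splice sites 12 nt apart, where the first site had a PSI of 0.422 in dTAG and 0.373 in Ctrl (chi-square p = 0.137). The 12 bases between the sites are in capitals, and both sites are annotated in coding transcripts.
Celf1 pair, chr2:91006590-91006643, plus strand: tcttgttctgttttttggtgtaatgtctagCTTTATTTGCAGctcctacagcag
Pcbp2, a poly(C)-binding protein, had 4 clusters with a largest deltaPSI of 0.0326 (chi-square p = 0.350). Its 39-nt coding exon was included at 0.819 in dTAG and 0.852 in Ctrl against 1 skipping junction, and at 0.961 in dTAG and 0.961 in Ctrl against another (chi-square p = 0.530). Its 93-nt exon was included at 0.589 in dTAG and 0.598 in Ctrl.

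Akap8l, a nuclear scaffold protein of the A-kinase anchoring family, had the smallest p of all these genes. Its cluster holds 2 introns that share a 3′ splice site and differ in the 5′ site. The 761-nt intron, which starts at the downstream site, had a PSI of 0.166 in dTAG and 0.0641 in Ctrl. The 1443-nt intron had 0.834 in dTAG and 0.936 in Ctrl. The shift of 0.102 had chi-square p = 0.00423 in LeafCutter's likelihood-ratio test and an adjusted p of 0.235. Use of the downstream site keeps 682 nt more in the RNA, and both introns are annotated in coding and in decay transcripts. The upstream, more used site matched CAGGTAAGT at 7 of 9 bases and the downstream site at 6 of 9. These 9 bases are in capitals.
Akap8l upstream site, chr17:32334568-32334607, minus strand: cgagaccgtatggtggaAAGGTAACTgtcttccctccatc
Akap8l downstream site, chr17:32333886-32333925, minus strand: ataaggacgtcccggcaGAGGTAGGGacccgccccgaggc

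Its neighbour and paralogue Akap8 had no called cluster. A 158-nt exon that GENCODE places in decay transcripts was included at 0.0523 in dTAG and 0.0469 in Ctrl, and the junction that skips it had a PSI of 0.901 in dTAG and 0.910 in Ctrl (chi-square p = 0.382).

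Sfpq, a paraspeckle protein, had chi-square p = 0.0277 (adjusted p = 0.603) at the introns of its 3′ end, in a cluster that also carries the name Gm12940. The intron of 2308 nt, which GENCODE gives to a coding transcript, had a PSI of 0.712 in dTAG and 0.777 in Ctrl. The intron of 8289 nt, which starts at the same 5′ splice site and is annotated in a processed transcript, had 0.218 in dTAG and 0.163 in Ctrl. An unannotated intron of 3002 nt had 0.0702 in dTAG and 0.0594 in Ctrl. The nearer 3′ splice site was therefore used less, relative to the farther one, in dTAG. The 2 other Sfpq clusters had chi-square p = 0.113 and 0.147, with largest deltaPSI of 0.0283 and 0.00426. The 2 competing 3′ sites are shown with the final AG of the intron in capitals.
Sfpq nearer site, chr4:127029807-127029829, plus strand: gttaattactgtttcaatAGcgt
Sfpq farther site, chr4:127035788-127035810, plus strand: gtttatttattattctttAGgta

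Tardbp (TDP-43), which binds UG repeats and represses cryptic exons, had the smallest shift of the called clusters. Its chi-square p was 0.04999 (adjusted p = 0.729) and its largest deltaPSI 0.00928 in size. The main first intron, of 1304 nt, had a PSI of 0.975 in dTAG and 0.972 in Ctrl. An intron of 668 nt from another first exon had 0.0101 in dTAG and 0.0194 in Ctrl. Another intron, not annotated and ending 2 nt farther on, had 0.0150 in dTAG and 0.00903 in Ctrl. The 2 nt between these 3′ sites are in capitals, so that the letters read AG and again AG.
Tardbp pair, chr4:148625363-148625406, minus strand: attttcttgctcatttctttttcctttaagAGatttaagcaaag
At the 3′ end of Tardbp, where the protein is known to limit its own mRNA, the decay-annotated intron of 721 nt had a PSI of 0.907 in dTAG and 0.919 in Ctrl (chi-square p = 0.749).

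Tra2a and Tra2b, activators that bind GAA-rich exons, had 4 clusters and no p under 0.456. In Tra2b the introns on either side of its poison exon formed 1 cluster without a junction that skips the exon. The introns of 3868, 3747 and 6479 nt, annotated in decay and in no coding transcripts, had PSI of 0.371, 0.0544 and 0.575 in dTAG, against 0.416, 0.0436 and 0.541 in Ctrl (chi-square p = 0.456). Tra2a had unannotated stretches of 312, 301 and 79 nt within its first intron (chi-square p = 0.849). They share the junction before them, with a PSI of 0.336 in dTAG and 0.315 in Ctrl. The junction after the 312-nt stretch had 0.147 in dTAG and 0.123 in Ctrl. The junction after the 79-nt stretch had only 0.0274 in dTAG and 0.0250 in Ctrl. Computed inclusion was 0.341 in dTAG and 0.301 in Ctrl for 312 nt, and 0.280 and 0.251 for 79 nt. The shared junction enters both values, so neither is the use of 1 form alone. Puf60, a partner of U2AF at 3′ splice sites, had a 51-nt coding exon included at 0.431 in dTAG and 0.415 in Ctrl (chi-square p = 0.770), and its largest deltaPSI over 3 clusters was 0.0409 (chi-square p = 0.488). Matr3, a nuclear matrix protein, had a 1093-nt exon included at 0.731 in dTAG and 0.776 in Ctrl against the most used junction that skips it (chi-square p = 0.729).

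**Figure D2:**
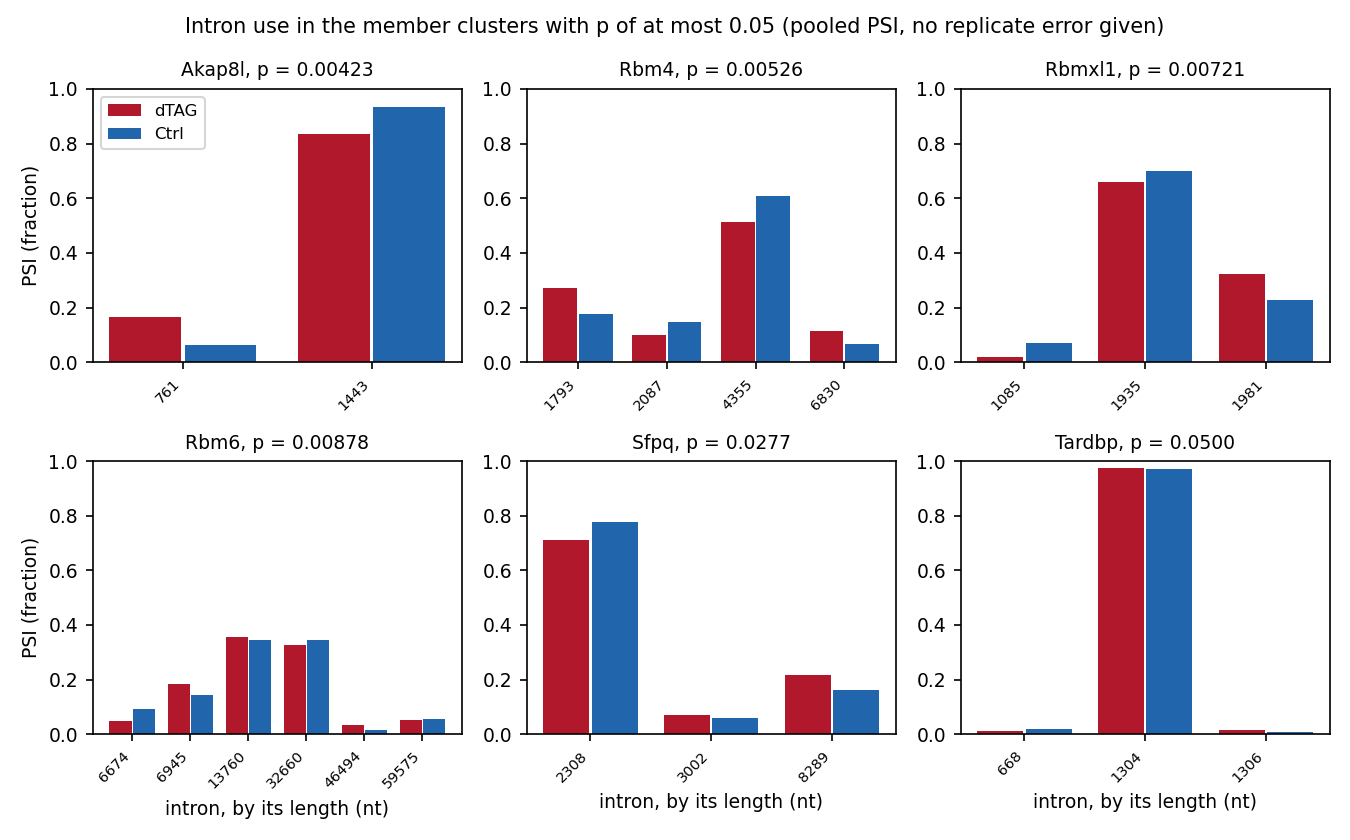
PSI (fraction) of every intron in the 6 clusters with p of at most 0.05, in dTAG (red, left bar) and Ctrl (blue, right bar), with introns named by their length in nt along the x axis. The bars are single pooled values without replicate error. The shorter Akap8l intron stands at 0.166 in dTAG and 0.0641 in Ctrl, while the bars of Tardbp differ by less than 0.01.

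Rbm4, a regulator of exon choice and of translation, had the second smallest chi-square p, 0.00526 (adjusted p = 0.272), in a cluster that also carries Gm21992, whose annotated transcripts span Rbm14 and Rbm4. Of its 4 introns, 3 leave the same 5′ splice site. The intron of 4355 nt had a PSI of 0.514 in dTAG and 0.609 in Ctrl. The intron of 2087 nt had 0.0997 in dTAG and 0.146 in Ctrl. The intron of 6830 nt, which skips to the last 3′ site, had 0.114 in dTAG and 0.0680 in Ctrl. The fourth intron, of 1793 nt, leads out of the 682-nt exon and had 0.272 in dTAG and 0.178 in Ctrl. The 2 nearer sites were thus used less and the farthest more in dTAG. Inclusion of an exon was taken as the mean PSI of its 2 junctions over that mean plus the PSI of the junction that skips it. For the 682-nt exon it was 0.775 in dTAG and 0.853 in Ctrl, although the 2 junctions of the exon moved in opposite directions. A coding frame annotated in this exon ends at a TAA that starts at its base 672. The 3 competing 3′ sites, nearest first, are shown with the final AG in capitals.
Rbm4 site of the 2087-nt intron, chr19:4790308-4790330, minus strand: ttcccttaatatatttttAGaaa
Rbm4 site of the 4355-nt intron, chr19:4788040-4788062, minus strand: cttgcgtctgtttcttcaAGgca
Rbm4 site of the 6830-nt intron, chr19:4785565-4785587, minus strand: tgtactgtgctctctttcAGgtg
A second cluster joined the first exons of Rbm14, a nuclear co-activator, with those of Rbm4. With 11 introns it was the largest of the 89, and it had a largest deltaPSI of 0.0231 and chi-square p = 0.610. The junction from the first exon of Rbm14 to its next exon, 7156 nt, had a PSI of 0.495 in dTAG and 0.508 in Ctrl. The junctions of 17162 and 18351 nt from the same 5′ splice site toward Rbm4, both annotated in Gm21992, had 0.0884 and 0.00710 in dTAG, against 0.0849 and 0.00894 in Ctrl.

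Rbmxl1 is an autosomal near-copy of Rbmx, and the study counted uniquely mapped reads only, so reads that both genes could give are not in the values. Its cluster had chi-square p = 0.00721 (adjusted p = 0.319). The intron to the upstream of 2 3′ sites 46 nt apart, 1935 nt long, had a PSI of 0.661 in dTAG and 0.701 in Ctrl. The intron to the downstream site, 1981 nt, had 0.321 in dTAG and 0.229 in Ctrl. An unannotated intron of 1085 nt had 0.0185 in dTAG and 0.0701 in Ctrl. The upstream site thus had the smaller share in dTAG. Each site is shown with its final AG in capitals.
Rbmxl1 upstream site, chr8:78506861-78506883, minus strand: taatacaataatattcacAGgtg
Rbmxl1 downstream site, chr8:78506815-78506837, minus strand: cttttctgttctgttctgAGacc
Rbmx itself had 2 clusters, with chi-square p = 0.218 and 0.451 and largest deltaPSI of 0.0298 and 0.0120.

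Rbm6, a relative of Rbm5 and Rbm10, had chi-square p = 0.00878 (adjusted p = 0.347) in a cluster of 6 introns that reaches over more than 1 exon. From 1 5′ splice site, the intron of 6945 nt had a PSI of 0.186 in dTAG and 0.145 in Ctrl. The intron of 6674 nt, which ends 271 nt earlier, had 0.0498 in dTAG and 0.0940 in Ctrl. Both 3′ sites are annotated in coding transcripts, and the farther one had the larger share in dTAG. The 74-nt exon later in the cluster was included at 0.911 in dTAG and 0.953 in Ctrl, and the unannotated junction of 46494 nt that skips it had a PSI of 0.0331 in dTAG and 0.0169 in Ctrl.
Rbm6 nearer site, chr9:107853672-107853694, minus strand: gcggattttccctgttgcAGgac
Rbm6 farther site, chr9:107853401-107853423, minus strand: ccctgtctttgtttctacAGtgg

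Rbm5, Rbm6 and Rbm10 share this 74-nt exon, and the comparison among them was chosen after its values were seen. In Rbm5 it was included at 0.886 in dTAG and 0.898 in Ctrl (chi-square p = 0.925), and the junction that skips it, annotated as decay, had a PSI of 0.0605 in dTAG and 0.0539 in Ctrl. In Rbm10 it was included at 0.927 in dTAG and 0.924 in Ctrl (chi-square p = 0.989). The Rbm6 exon had the highest inclusion of the 3 in Ctrl, and its difference between dTAG and Ctrl, −0.0419, was the widest. Exons are in capitals.
Rbm5 74-nt exon, chr9:107759756-107759869, minus strand: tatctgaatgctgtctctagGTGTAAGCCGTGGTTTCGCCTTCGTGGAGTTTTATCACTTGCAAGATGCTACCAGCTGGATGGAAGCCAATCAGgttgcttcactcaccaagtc
Rbm6 74-nt exon, chr9:107833414-107833527, minus strand: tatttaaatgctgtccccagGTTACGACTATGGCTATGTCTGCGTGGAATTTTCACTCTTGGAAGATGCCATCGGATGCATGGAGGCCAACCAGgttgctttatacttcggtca
Rbm10 74-nt exon, chrX:20641163-20641276, plus strand: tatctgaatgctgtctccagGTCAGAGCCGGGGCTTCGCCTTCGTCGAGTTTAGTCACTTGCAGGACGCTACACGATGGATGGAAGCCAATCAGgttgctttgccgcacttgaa
The exons of Rbm5 and Rbm10 were identical at 61 of 74 bases (82.4%), those of Rbm5 and Rbm6 at 50 (67.6%), and those of Rbm6 and Rbm10 at 47 (63.5%). The 20 intron bases before them were closer still, at 95%, 80% and 85% for the same pairs, while the 20 bases after them were identical at 10 for each pair.

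Rbm3, induced by cold, had the largest deltaPSI of all 89 clusters and a p of 0.332. Its cluster is a pair of 5′ splice sites 4 nt apart. The 291-nt intron had a PSI of 0.720 in dTAG and 0.581 in Ctrl, and the 295-nt intron had 0.280 in dTAG and 0.419 in Ctrl. This difference of 0.139 did not pass the test. The 4 bases between the sites are in capitals. Both sites matched CAGGTAAGT at 6 of 9 bases.
Rbm3 pair, chrX:8143227-8143265, minus strand: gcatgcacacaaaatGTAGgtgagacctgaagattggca

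Among the other RBM genes with a cluster of the 10 largest shifts, Rbms1, a single-strand binding protein, had a 48-nt coding exon included at 0.147 in dTAG and 0.187 in Ctrl (chi-square p = 0.280). Only the intron after this exon was lower, at 0.128 in dTAG and 0.186 in Ctrl. The intron before it had 0.128 in dTAG and 0.129 in Ctrl. Rbm26, linked to nuclear RNA decay, had a cluster together with Gm17066 in which the coding Rbm26 intron of 1699 nt had a PSI of 0.512 in dTAG and 0.565 in Ctrl (chi-square p = 0.444). Rbm5, whose clusters were outside the 10 largest shifts, had an 85-nt coding exon included at 0.800 in dTAG and 0.864 in Ctrl, with chi-square p = 0.0823, and its skipping junction had a PSI of 0.111 in dTAG and 0.0731 in Ctrl. The Rbms1 exon has a length divisible by 3 and the Rbm5 exon does not.
Rbms1 48-nt exon, chr2:60759739-60759826, minus strand: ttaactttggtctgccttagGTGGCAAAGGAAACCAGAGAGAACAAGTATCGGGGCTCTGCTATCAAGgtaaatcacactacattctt
Rbm5 85-nt exon, chr9:107749988-107750112, minus strand: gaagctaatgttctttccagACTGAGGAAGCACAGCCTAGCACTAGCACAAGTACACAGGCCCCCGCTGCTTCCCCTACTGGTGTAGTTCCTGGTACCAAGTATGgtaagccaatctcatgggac

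Over all cassettes, that is every pair of junctions around a skipped stretch, 1 of 94 in these genes had inclusion higher by at least 0.05 in dTAG (1.06%), against 7.93% of 5005 in all genes. A lower inclusion by at least 0.05 was seen in 6 of 94 (6.38%), against 9.29% in all genes. Some stretches hold several exons or share a junction. The higher one was a span of 6136 nt in Rbm6. The 6 lower ones were the exons just named in Rbm4 and Rbm5, longer spans in Rbm4, Rbm6 and Sfpq, and a 55-nt exon of Rbm39 measured against a rare skipping junction. Counting each annotated exon once left 50, of which 20 had higher and 30 lower inclusion in dTAG, with 0 higher and 2 lower by at least 0.05. Their median absolute change was 0.0139, and it was 0.0162 over 3277 annotated exons of all genes. The change was under 0.02 in 34 of the 50 (68%), against 56.9% in all genes. Of the 50, 18 were included at 0.9 or more in both conditions (36%, against 39.6% in all), 5 at 0.1 or less (10%, against 5.13%), and 19 had a length divisible by 3 (38%, against 44.6%).

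**Figure D3:**
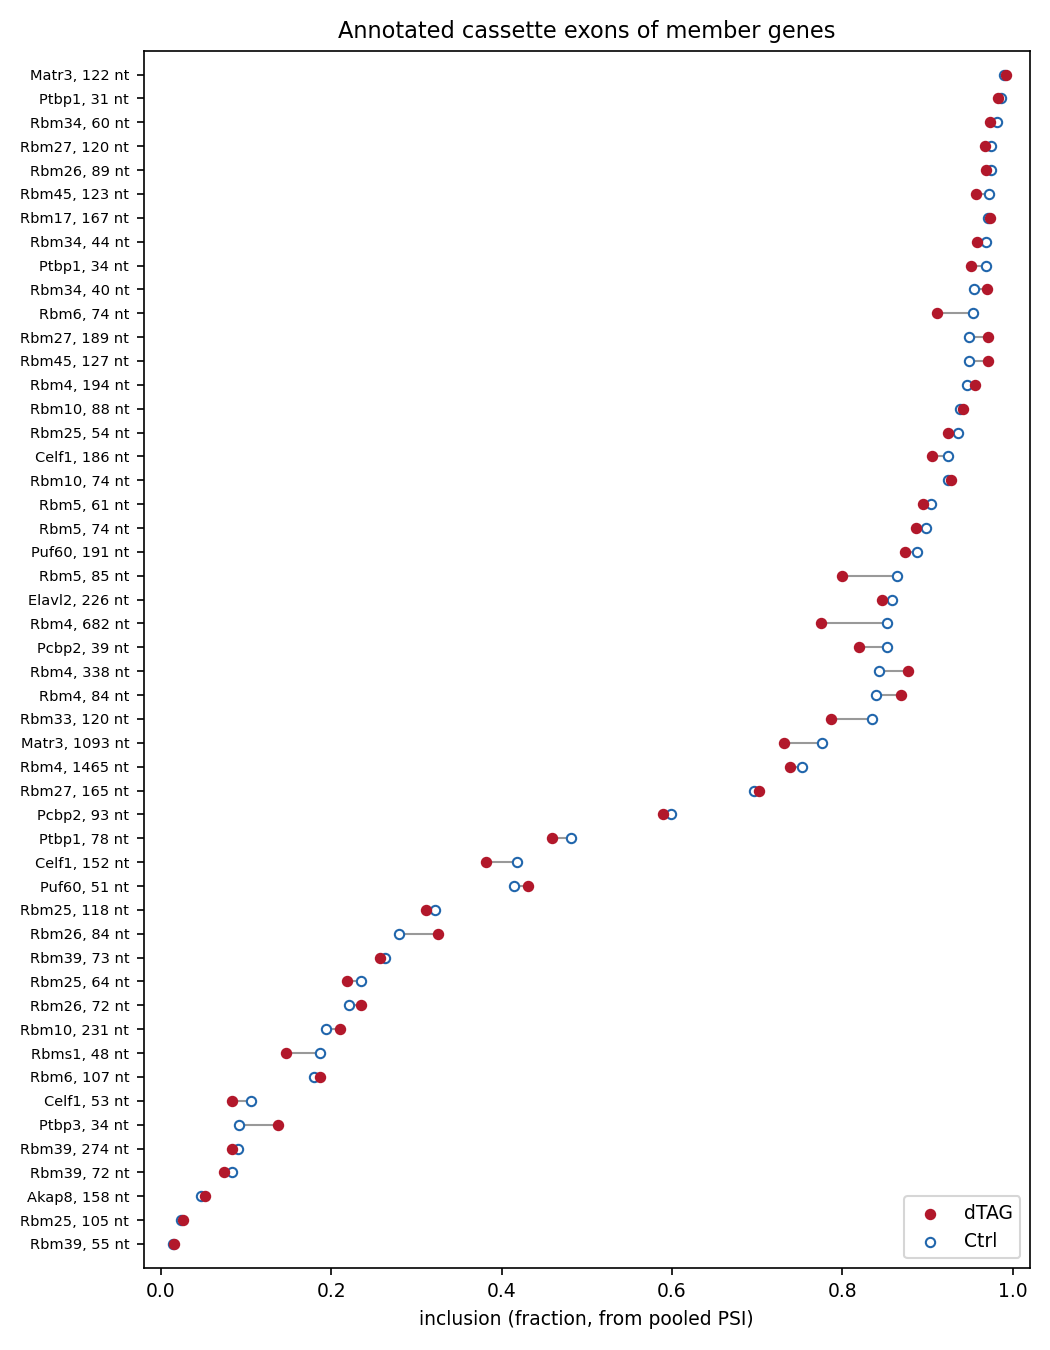
Inclusion (fraction, x axis) of the 50 annotated cassette exons of these genes, ordered by the Ctrl value and named by gene and length, in dTAG (filled red) and Ctrl (open blue), joined by a grey line. In 34 exons the points lie within 0.02 of each other. The widest gaps are the 682-nt exon of Rbm4, at 0.775 in dTAG and 0.853 in Ctrl, and the 85-nt exon of Rbm5, at 0.800 in dTAG and 0.864 in Ctrl.

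Introns that GENCODE lists in decay transcripts and in no coding transcript made up 24 of the 281 introns (8.54%), against 4.84% of all tested introns. Their median PSI was 0.0567 in dTAG and 0.0522 in Ctrl, 15 were higher and 9 lower in dTAG, and 0 changed by 0.05 or more. In all genes, 103 of 989 such introns did. Rbm39, a U2AF-related factor, held 8 of the 24 among the 22 introns of its 5 clusters, and its largest cluster, of 7 introns, had chi-square p = 0.430. Its 73-nt poison exon was included at 0.257 in dTAG and 0.263 in Ctrl (chi-square p = 0.978), its 72-nt exon at 0.0746 in dTAG and 0.0840 in Ctrl, and its 55-nt exon, against the main skipping junction, at 0.0152 in dTAG and 0.0148 in Ctrl. Rbm25, which works with U1 at 5′ splice sites, had a 105-nt poison exon included at 0.0265 in dTAG and 0.0241 in Ctrl (chi-square p = 0.538). Its largest cluster, of 8 introns near the start of the gene, had chi-square p = 0.874 and no deltaPSI over 0.0126. The poison exons of Akap8, Rbm25 and Rbm39 are shown from the last 20 intron bases to the stop codon that ends the annotated reading frame, which is in capitals, so that the distance from the intron's final ag to the stop can be read.
Akap8 158-nt exon, chr17:32313240-32313282, minus strand: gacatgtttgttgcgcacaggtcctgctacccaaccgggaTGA
Rbm25 105-nt exon, chr12:83651626-83651655, plus strand: tgttggtttgcttgttccaggttgggaTGA
Rbm39 73-nt exon, chr2:156178881-156178972, minus strand: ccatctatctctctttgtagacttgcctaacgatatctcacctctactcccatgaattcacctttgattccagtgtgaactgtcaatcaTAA
Rbm39 72-nt exon, chr2:156174126-156174188, minus strand: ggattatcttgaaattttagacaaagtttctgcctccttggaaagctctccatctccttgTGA
Rbm39 55-nt exon, chr2:156176439-156176477, minus strand: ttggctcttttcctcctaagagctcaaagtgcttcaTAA
The stop began at base 21 of the Akap8 exon, base 8 of the Rbm25 exon, and bases 70, 41 and 17 of the 3 Rbm39 exons in the order shown.

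Splice sites 3 nt apart were common in these genes, and this feature was looked at after the values were seen. They were present in 14 of the 89 clusters (15.7%), against 8.80% of all clusters. There were 15 pairs, 14 of them at 3′ sites in 13 genes, and 1 at the 5′ site of an Rbm10 intron. None of the 15 lay in a cluster at p of at most 0.05 in LeafCutter's likelihood-ratio test, against 32 of 665 pairs in all genes (4.81%). The share of the first site within a pair changed by a median of 0.0120, and by 0.0173 in all genes. The first AG had the larger PSI in both conditions in 10 of the 14 pairs, and in 442 of 641 in all genes. Tra2a and Tra2b have the pair at matching places, where 12 of the 15 bases after the first AG are identical (80%) but only 13 of the 30 intron bases before it (43.3%). The first site took 0.910 of the pair in dTAG and 0.914 in Ctrl for Tra2a (chi-square p = 0.971), and 0.885 in dTAG and 0.885 in Ctrl for Tra2b (chi-square p = 0.988). In Rbmx the first site took 0.0928 in dTAG and 0.105 in Ctrl (chi-square p = 0.451). Elavl2 had the 1 share that changed by more than 0.05, at 0.322 in dTAG and 0.437 in Ctrl, in a cluster with chi-square p = 0.817 where the 2 introns of the pair had PSI of at most 0.112. The 3 bases between the sites are in capitals.
Tra2a pair, chr6:49244921-49244965, minus strand: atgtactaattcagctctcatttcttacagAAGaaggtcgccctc
Tra2b pair, chr16:22247249-22247293, minus strand: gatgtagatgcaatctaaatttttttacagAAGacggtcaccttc
Rbmx pair, chrX:57391687-57391731, minus strand: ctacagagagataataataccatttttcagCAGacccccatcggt
Elavl2 pair, chr4:91253556-91253600, minus strand: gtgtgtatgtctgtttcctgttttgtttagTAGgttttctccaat

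**Figure D4:**
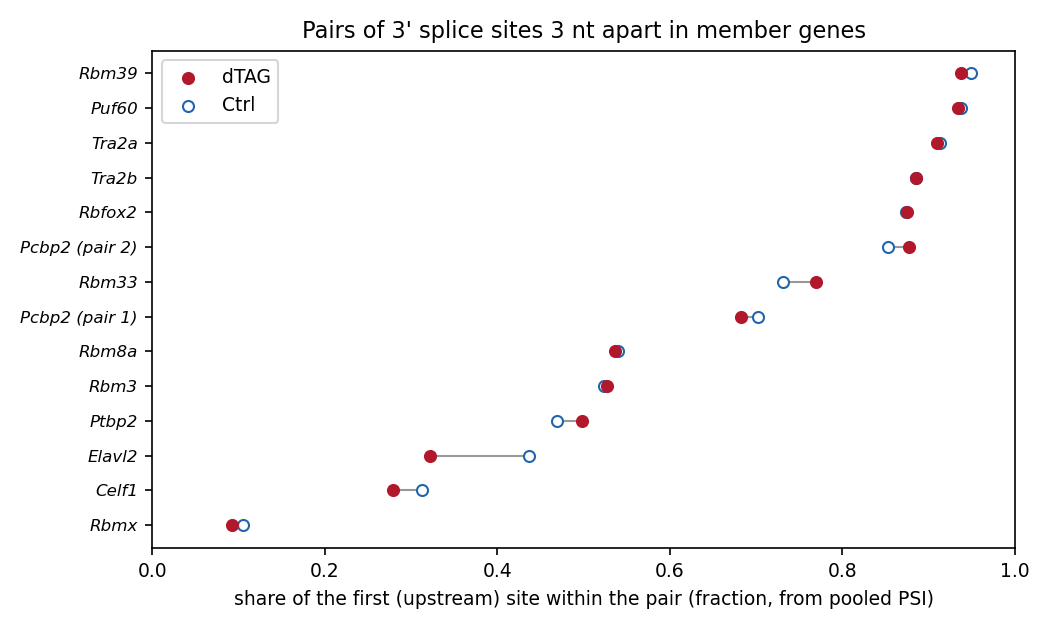
Share of the first, upstream site (fraction, x axis) within each of the 14 pairs of 3′ splice sites 3 nt apart, by gene, in dTAG (filled red) and Ctrl (open blue). The shares run from under 0.11 in Rbmx to over 0.93 in Rbm39 in both conditions, and the points of Elavl2 are the farthest apart, at 0.322 in dTAG and 0.437 in Ctrl.

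The make-up of the clusters was compared with that of all tested clusters, without a test. A single cassette was seen in 34 of 89 (38.2%, against 33.2% of all), a choice of 3′ site in 24 (27%, against 25.2%), a choice of 5′ site in 8 (8.99%, against 22.2%), and another pattern in 23 (25.8%, against 19.3%). A choice of site was any cluster of 2 introns that share an end, whatever the distance, so it can hold sites of different exons. The 5′ sites of Rbfox2 and Rbm47, for example, lay 77857 and 43225 nt apart. Clusters of 2 introns made up 36%, against 47.6% of all, and clusters of 4 or more introns 19.1%, against 13.7%. Of the 281 introns, 233 were annotated (82.9%), against 74.7% of all tested introns.

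Motifs were counted on the sense strand in the exon and 100 intron bases on each side, over 55 distinct cassettes of at most 300 nt in these genes and 3716 in all. Distinct cassettes can share an end, such as the 93-nt and 270-nt stretches of Pcbp2. Their windows then overlap, and the same letters can count more than once. GGACT, the commonest core of m6A sites, was in 20% of the 55 and 23.1% of all. GCATG, bound by Rbfox proteins, was in 16.4% and 26.5%, and TGTGTG, bound by Tardbp and Celf1, in 10.9% and 18.9%. ACTAAC, bound by Qki, was in 14.5% and 5.30%, and TTCTCT, bound by Ptbp1, in 38.2% and 24.2%. GAAGAA, bound by Tra2 proteins, was in 14.5% and 17.1%. These shares depended on the length limit. Over cassettes of all lengths, 87 in these genes and 4722 in all, GGACT was in 36.8% and 35%, GCATG in 39.1% and 37.9%, and GAAGAA in 40.2% and 28.3%, so that the order of the shares turned for these 3 motifs. TGTGTG was then in 27.6% and 29.7%, ACTAAC in 16.1% and 12.5%, and TTCTCT in 51.7% and 35.4%. The 74-nt exons of Rbm5, Rbm6 and Rbm10 had ACTAAC in all 3 windows, and these related exons are among the 8 of 55 that had it. A match is a description of the letters, and binding was not measured here.

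A list of 30 genes known from other systems for exons controlled by PTBP, MBNL, RBFOX, CELF, ESRP or QKI proteins was also examined. It was not drawn up for the RBM genes or the nuclear co-regulators, and Mbnl, Esrp and Qki had no tested cluster here. Of the 30 genes, 20 had tested clusters, 52 in number. At p of at most 0.05 in LeafCutter's likelihood-ratio test 0 of the 52 were called, against 6.84% of all tested clusters. The smallest unadjusted p of that test was 0.0754, for Macf1. The median of the largest absolute deltaPSI was 0.0283 over the 52 clusters and 0.0214 over all tested clusters. The widest was 0.234 in Dnm2 (chi-square p = 0.115), and Ptk2 had 0.141 (chi-square p = 0.188). For 2 other classes of splicing regulators, the SR protein genes had 2 of 18 clusters at p of at most 0.05 (11.1%). The hnRNP genes had 5 of 52 (9.62%), and the share over all tested clusters was 6.84%. Of the hnRNP clusters, 3 had an adjusted p under 0.2, where the share over all was 1.58%. The differences from the 6 of 89 above were not tested.

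No expression level was available, and a gene had a tested cluster only if introns sharing splice sites had enough split reads. A gene without such introns has no cluster whatever its expression, so the counts below do not read out cell identity. Of 14 pluripotency markers 10 had a tested cluster, among them Nanog, Esrrb and Zfp42, with 31 clusters and 1 at p of at most 0.05 (3.23%, against 6.84% of all tested clusters). Pou5f1, Sox2, Lin28a and Utf1 had none. Of 10 feeder fibroblast markers 2 had a tested cluster, Fn1 and Sparc, with 6 clusters and 1 at that threshold (16.7%, a share that rests on a single cluster). Of 10 markers of differentiated cells 0 had a tested cluster. The 2 clusters of Mettl3, whose protein and not whose RNA is the target of dTAG-13, had p of 0.805 and 0.947.

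A further 11 RBM genes had no cluster at p of at most 0.05, none among the 10 largest shifts, and no cassette that differed by 0.05. Their largest deltaPSI were between 0.00383 and 0.0441. They were Rbm8a of the exon junction complex, Rbm10, Rbm12, Rbm17, which meets the 3′ splice site, Rbm27, Rbm33, Rbm34, Rbm41, Rbm42, Rbm45 and Rbm47. Rbm17 had the lowest p among them, 0.0964, at an unannotated 5′ splice site with a PSI of 0.0216 in dTAG and 0.0126 in Ctrl.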

How the data were processed

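The authors mapped the 4sU-seq reads to mm10 with STAR 2.5.2b (submitters' processing notes) and built and tested clusters with LeafCutter from uniquely mapped split reads, with clones and replicates pooled. From the deposited cluster table, the log-likelihood ratio score was turned into a p-value by the chi-square tail, which equalled the deposited p-value to within 7.63e-15, and adjusted by Benjamini-Hochberg over the 7263 tested clusters. From the deposited intron table, the fitted PSI of each condition, a fraction, was used, and deltaPSI was recomputed. The authors' own columns of PSI differences and log effects hold their comparison and were not used. Other columns (degrees of freedom, gene names, test status) were read as the authors deposited them.

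Introns, exons, reading frames and sequences came from GENCODE annotation and the GRCm38 genome by coordinates. Work was done in Python 3.11.15 with numpy 2.4.6, pandas 2.3.3, scipy 1.17.1 and pysam 0.24.0, and tested on simulated data. Members and gene lists were chosen with earlier results of these data known. Named genes were those with a cluster at p of at most 0.05, the 10 clusters with the largest deltaPSI, cassettes moved by at least 0.05, the 3 clusters with most introns, and the largest deltaPSI of each other family. Other genes named with values were chosen after their values were seen. Depth per sample is unknown.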

Additional observations from a re-analysis of the deposited data

How the results depend on the processing

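Counts followed the definition of the gene set and the thresholds. With symbols starting with Rbm alone, 3 of 51 clusters had p of at most 0.05 (6.84% of all), 1 reached a deltaPSI of 0.1 (4.63% of all), and 3 of 22 genes were called (11.2% of all). Of the 89 clusters, 10 reached a deltaPSI of 0.05 (19.8% of all) and 0 reached 0.2 (1.14% of all). Cassettes with lower inclusion numbered 3 of 77 without clusters of several genes and 2 of 94 by the skipping junction alone. They numbered 2 of 59 for exons of at most 300 nt and 0 of 94 at a change of 0.1. Over distinct annotated exons, an alternative added after seeing the data, they numbered 2 of 50. Those with higher inclusion numbered 0 of 59 for exons of at most 300 nt and 0 of 94 at a change of 0.1. Over distinct annotated exons they numbered 0 of 50. The share over all cassettes was not counted under these settings. At a change of 0.05 it was 9.29% for lower and 7.93% for higher inclusion. Without clusters of several genes, which takes out the called clusters of Rbm4 and Sfpq, 4 of 82 clusters had p of at most 0.05, against 6.77% of all. By gene it was 4 of 34. The share of all named genes was 11.2% with clusters of several genes kept and was not counted without them. At p of at most 0.01 there were 4 of 89, a share above the 2.67% of all clusters, while the share at 0.05 was slightly below that of all. The motif shares turned with the length limit, as given above. The Benjamini-Yekutieli adjustment gave an adjusted p of 1 for each of the 6 called clusters. No paired analysis was possible because the tables hold 1 pooled PSI per condition and no values per sample, so that no replicate or clone could be left out or blocked.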
